A study of Mus musculus with 4 samples.

Results

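The D cyclins, the kinases they activate, 3 inhibitors of those kinases and both G cyclins were measured by RNA-seq in mouse pancreatic islets at low and high glucose. The 10 genes were chosen by name, as the entries of the deposited table whose annotation equals *Ccnd1*, *Ccnd2*, *Ccnd3*, *Cdk4*, *Cdk6*, *Cdkn1a*, *Cdkn1b*, *Cdkn2c*, *Ccng1* or *Ccng2*, out of 24012 gene symbols in the table. They occupied 13 of its 33923 rows, and where a gene had several rows the one with the highest mean over the libraries was used. Islets of wild type C57bl6 male mice of 3 months were pooled and kept overnight at 11 mM glucose. They then spent 2 h at 2.8 mM glucose before stimulation at 2.8 mM (LoGlu, n = 2 libraries) or 16.8 mM glucose (HiGlu, n = 2 libraries). The series gives 12 h for both groups, whereas the labels of the 2.8 mM libraries give 2 h, so that time and glucose cannot be told apart if the labels hold. Because the islets were pooled, the spread between libraries of a group may be technical, and p-values measure that spread alone.

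A cell leaves G1 when a D cyclin binds Cdk4 or Cdk6 and the complex phosphorylates the retinoblastoma protein, which releases E2F factors that switch on the genes of DNA replication. Inhibitors of the INK4 family, such as *Cdkn2c* (p18), bind the kinases themselves, and inhibitors of the Cip/Kip family, such as *Cdkn1a* (p21) and *Cdkn1b* (p27), bind cyclin and kinase together. In the mouse, beta cells depend on *Cdk4* and *Ccnd2* to reach their normal number, while adult beta cells rarely divide. The G cyclins stand apart, as *Ccng1* is a classic target of p53 and *Ccng2* of FOXO factors, and both are tied to growth arrest and stress rather than to entry into S phase.

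Of the 10 genes, 8 reached the minimum of a mean of 1 RPKM (reads scaled to gene length and library depth) and were tested with limma on log2(RPKM + 0.5), with Benjamini-Hochberg adjustment over all 7867 transcripts tested. At an adjusted p under 0.05, 4 of the 8 passed. *Ccnd1* and *Cdkn1a* rose at 16.8 mM glucose, and *Cdk4* and *Ccng1* fell. Over all transcripts tested 33.4% passed, 10.7% higher and 22.8% lower. The libraries of the groups did not overlap for 7 of the 8, where the background was 70.4% of all transcripts (22.2% higher and 48.3% lower), and *Ccng2* was the exception. The median log2 fold change of the 8 genes was -0.11, as was that of all transcripts. The group thus held rises and falls of similar number.

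The promoters of the kinase pair are shown because these kinases differed most in level within the group. The motif marked in them is the E-box, CACGTG. Each is the 250 bases before the start in RefSeq, on the plus strand of GRCm38.p6, at chr10:127063285-127063534 for *Cdk4* and chr5:3343643-3343892 for *Cdk6*, with each E-box in capitals.
Cdk4: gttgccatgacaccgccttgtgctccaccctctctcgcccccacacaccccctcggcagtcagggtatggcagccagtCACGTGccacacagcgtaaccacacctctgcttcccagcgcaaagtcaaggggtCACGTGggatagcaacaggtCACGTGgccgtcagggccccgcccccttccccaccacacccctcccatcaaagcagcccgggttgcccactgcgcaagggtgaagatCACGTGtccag
Cdk6: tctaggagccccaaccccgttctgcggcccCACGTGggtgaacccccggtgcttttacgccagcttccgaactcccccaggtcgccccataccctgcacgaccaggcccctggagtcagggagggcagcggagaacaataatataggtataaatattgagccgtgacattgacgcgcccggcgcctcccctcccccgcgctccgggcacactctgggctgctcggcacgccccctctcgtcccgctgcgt
The *Cdk4* promoter holds 4 E-boxes, which begin at positions -172, -118, -98 and -11 from the start, and that of *Cdk6* holds 1, which begins at -220. Of 32851 promoters of the same length, 6.02% hold at least 1 E-box, and 7 (0.0213%) hold at least 4. The motif reads the same on both strands, and its presence is a description of the letters alone. Binding of any factor to it was not tested. Among the 11 promoters that matched 8 of the 10 genes, no other held an E-box. No promoter of *Ccnd1* or *Ccnd2* was available, so these genes were not searched. The forkhead motif TGTTTAC was found once, in the upstream one of the *Ccnd3* promoters, and it occurs on either strand in 3.17% of all promoters. The cAMP response element TGACGTCA, the amino acid response element TGATGCAA and the E2F motifs TTTCGCGC and TTTGGCGC were in none of the 11, against 1.55%, 0.791%, 0.256% and 0.417% of all promoters.

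The libraries held between 50800000 and 60670000 reads, as recovered from the steps of the values. The length behind the deposited values appears to be that of the whole gene, introns included, so a level can be compared between genes only after it is rescaled to the exon length, on the assumption that most reads are exonic. The 8 tested genes had between 666 and 18225 reconstructed reads per library, a counting error of 0.741% to 3.87%, and the number of libraries limits the precision more than depth does. The tissue carried its markers. Summed over 8 beta cell markers, the level was 22936 and 20586 RPKM at 2.8 mM and 43896 and 41147 RPKM at 16.8 mM, and 6 of the 8 rose, *Ins1*, *Ins2* and *Mafa* among them. The sum of 5 alpha cell markers was between 1665 and 2172 RPKM at 2.8 mM and between 1486 and 2114 RPKM at 16.8 mM, and that of 3 delta and PP cell markers between 1169 and 1549 and between 1513 and 1831 RPKM, with 0 of the 4 and 0 of the 3 tested passing in limma, while 1 alpha marker fell and 1 delta or PP marker rose in voom. The sum of 7 acinar markers was 82.3 and 238 RPKM at 2.8 mM and 202 and 425 RPKM at 16.8 mM, with 0 of 7 passing in limma and 7 of 7 higher in the count-based fit described below. Leukocyte markers summed to between 10.02 and 14.3 RPKM in all libraries, stromal markers to between 1.64 and 3.40 RPKM and endothelial markers to between 1.78 and 3.12 RPKM, and 2 leukocyte, 1 stromal and 0 endothelial markers reached the minimum, of which none passed in limma. In voom 1 of 6 leukocyte, 3 of 5 endothelial and 0 of 5 stromal markers rose. For all marker counts here, the shares of all transcripts were 10.7% higher and 22.8% lower in limma. In voom they were 13.3% and 29.1%. Of 4 duct markers *Krt7* fell, while *Krt19*, with 1.27 and 3.96 RPKM at 2.8 mM and 4.31 and 7.56 RPKM at 16.8 mM, did not pass in limma (adjusted p = 0.0728) and rose by 1.36 on the log2 scale in voom (adjusted p = 0.0013). No marker was at 0 in every library, and the part of these cell types in the results below was not tested. In whole islets, a change in the number of cells of a type and a change in RNA per cell cannot be told apart.

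*Ccnd1*, the D cyclin that growth factor signals induce in many cell types, rose with glucose. The gene lies on the minus strand of chromosome 7 at 152115836 to 152125774 (mm9, as all gene positions here) and has 5 exons. Its level was 5.91 and 5.23 RPKM in the 2.8 mM libraries and 8.78 and 8.28 RPKM in the 16.8 mM libraries. Both libraries at high glucose thus lay well above both at low glucose, with means of 8.53 ± 0.35 and 5.57 ± 0.48 RPKM (SD, n = 2). The log2 fold change was 0.57 (95% interval 0.31 to 0.84, SE 0.11, limma adjusted p = 0.0092), a change larger in size than that of 86.2% of the transcripts tested. The call held without each of the 4 libraries in turn. The gene *Oraov1*, which overlaps 818 bases of *Ccnd1* on the other strand, had a log2 fold change of 0.08 (limma adjusted p = 0.594).

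*Ccnd2*, the D cyclin on which the growth of the beta cell population depends in mice, went the other way without passing the test. It lies on the minus strand of chromosome 6 at 127075797 to 127101066. The libraries read 12.3 and 12.1 RPKM at 2.8 mM and 9.20 and 10.3 RPKM at 16.8 mM. The groups did not overlap, and the libraries at 16.8 mM lay further apart than those at 2.8 mM (9.74 ± 0.76 against 12.2 ± 0.15 RPKM, SD, n = 2). The log2 fold change was -0.32 (95% interval -0.59 to -0.04, SE 0.12) with a limma adjusted p of 0.0731, although the interval before adjustment does not reach 0. A lincRNA on the opposite strand, *9330179D12Rik*, overlaps 1660 bases of the *Ccnd2* gene, 6.57% of its span. It rose from 0.989 and 1.22 RPKM to 2.45 and 2.06 RPKM (log2 fold change 0.78, limma adjusted p = 0.0029). Whether the counting used strand is not stated, so reads in the overlap cannot be assigned to one of the genes, and the direction of the lincRNA was opposite to that of *Ccnd2*. The overlapping neighbours were looked at after the values of the D cyclins were seen.

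*Ccnd3*, the remaining D cyclin, was higher at 16.8 mM without passing the test. Its entry covers 47730416 to 47736632 on the plus strand of chromosome 17, the downstream end of a gene that begins at 47642000. The values were 3.49 and 3.64 RPKM at 2.8 mM and 4.76 and 4.19 RPKM at 16.8 mM. Again the groups did not overlap, and the lower of the libraries at high glucose lay close to the range at low glucose. Its log2 fold change was 0.29 (95% interval 0.04 to 0.53, SE 0.10, limma adjusted p = 0.069). The other entry of the gene, which covers its full span, held 0.246 and 0.259 RPKM at 2.8 mM and 0.326 and 0.291 RPKM at 16.8 mM. This is the same order at a level under the minimum. That span includes the entry used, so the order is not a separate measurement. *Bysl*, which overlaps 353 bases of the *Ccnd3* entry on the other strand, had a log2 fold change of 0.01 (limma adjusted p = 0.914).

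**Figure D1:**
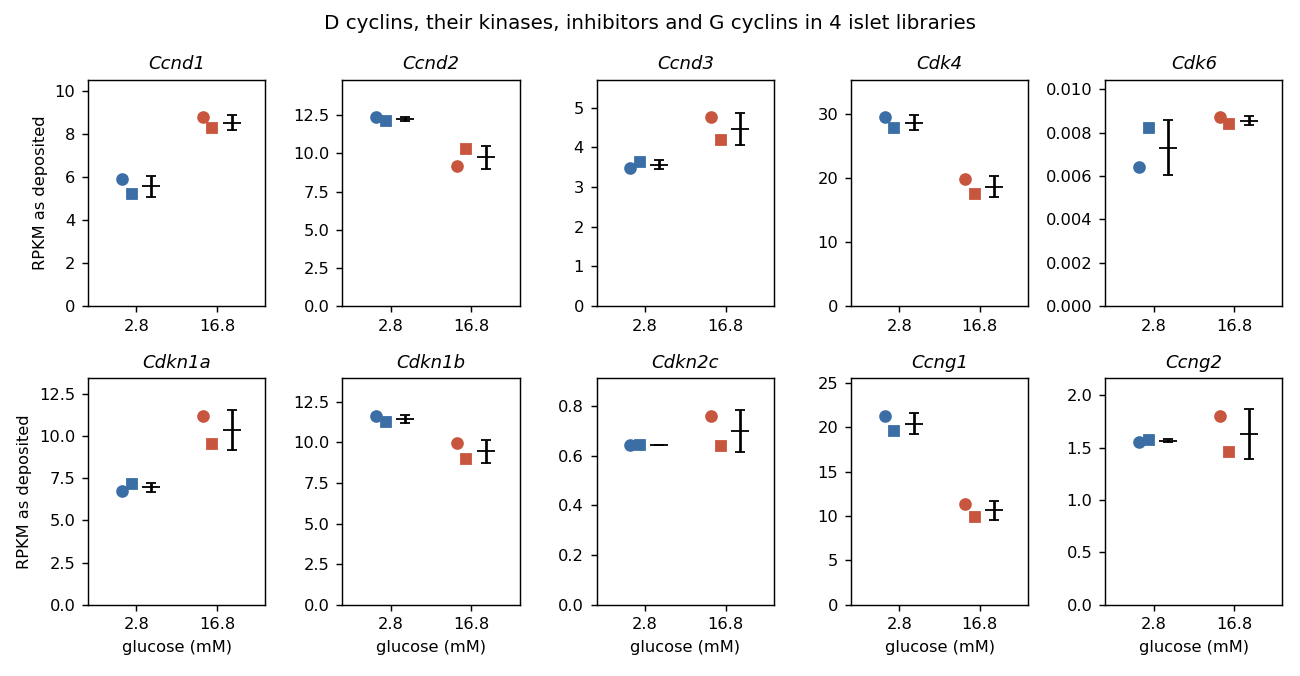
RPKM as deposited (vertical axes, each from 0) of the 10 genes at 2.8 mM (blue) and 16.8 mM glucose (red), with replicate 1 as a circle, replicate 2 as a square and the mean ± SD in black (n = 2). *Ccnd1* and *Cdkn1a* lie higher at 16.8 mM and *Cdk4* and *Ccng1* lower without overlap. The groups of *Ccnd2*, *Ccnd3*, *Cdk6* and *Cdkn1b* do not overlap either, as for 70.4% of all transcripts tested. The libraries of *Cdkn2c* and *Ccng2* at 2.8 mM fall between those at 16.8 mM.

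Taken on the exon scale, the D cyclins changed in proportion more than in sum. The summed level of *Ccnd1*, *Ccnd2* and *Ccnd3* was 81.4 and 79.2 at 2.8 mM and 79.1 and 80.7 at 16.8 mM (RPKM rescaled to exon length), so the groups overlapped. *Ccnd1* made up 19.3% and 17.6% of this sum at 2.8 mM and 29.5% and 27.2% at 16.8 mM. *Ccnd2* made up 67.2% and 67.9% at 2.8 mM and 51.6% and 56.4% at 16.8 mM, and so remained the most abundant D cyclin in every library. *Ccnd3* supplied 13.5% and 14.5% of the sum at 2.8 mM and 18.9% and 16.3% at 16.8 mM. In RPKM as deposited, the ratio of *Ccnd1* to *Ccnd2* went from 0.479 and 0.431 to 0.954 and 0.806. For each of these shares and for the ratio, the exact two-sided permutation test over the libraries gave p = 0.333, the smallest value that 2 libraries against 2 allow, and for the sum it gave p = 0.667.

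**Figure D2:**
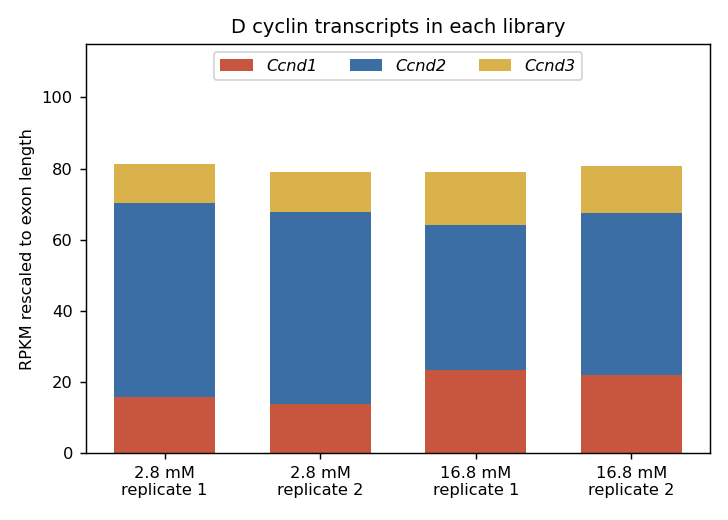
Summed level of the D cyclins in each library (vertical axis, RPKM rescaled to exon length, from 0), divided into *Ccnd1* (red), *Ccnd2* (blue) and *Ccnd3* (yellow). The total stays between 79.1 and 81.4 while the *Ccnd1* part is larger, and the *Ccnd2* part smaller, in both libraries at 16.8 mM.

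*Cdk4*, the kinase partner of the D cyclins in mouse beta cells, fell at 16.8 mM glucose. The gene lies on the plus strand of chromosome 10 at 126500590 to 126504976. It was the most abundant of the 10 at 2.8 mM, with 29.5 and 27.9 RPKM, against 19.9 and 17.5 RPKM at 16.8 mM. Both libraries at high glucose lay well below those at low glucose (18.7 ± 1.7 against 28.7 ± 1.1 RPKM, SD, n = 2). The log2 fold change was -0.61 (95% interval -0.91 to -0.31, SE 0.13, limma adjusted p = 0.0123), larger in size than that of 87.9% of transcripts. Without the second library at 16.8 mM the value was -0.52 and the limma adjusted p 0.105. *Tspan31* lies on the other strand and overlaps 604 bases of *Cdk4*, 13.8% of its span. Its values were 16.7 and 15.4 RPKM at 2.8 mM and 16.6 and 14.8 RPKM at 16.8 mM, which overlapped (log2 fold change -0.03, limma adjusted p = 0.872).

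*Cdk6*, the alternative partner of the D cyclins, was low. Across its span of 179326 bases on the plus strand of chromosome 5 (3343893 to 3523218), only 67 and 76 reads were reconstructed at 2.8 mM and 95 and 77 reads at 16.8 mM. This corresponds to between 0.0064 and 0.0087 RPKM, far under the minimum for a test, with a counting error of 10.3% to 12.2% in each library. In a limma fit to reconstructed reads (voom), with a minimum of 20 reads on average, the log2 fold change was 0.26 (95% interval -0.28 to 0.79, adjusted p = 0.445). On the exon scale *Cdk4* lay between 92.8 and 205 times above *Cdk6* in each library. The D cyclin sum per unit of *Cdk4* on the same scale was 1.29 and 1.33 at 2.8 mM and 1.86 and 2.16 at 16.8 mM (exact permutation p = 0.333, the smallest possible).

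*Cdkn1a* encodes p21, the Cip/Kip inhibitor best known as a target of p53, and it rose with glucose. Its entry covers 29230717 to 29237667 on the plus strand of chromosome 17, within a gene that begins at 29227924. The libraries read 6.77 and 7.16 RPKM at 2.8 mM and 11.2 and 9.52 RPKM at 16.8 mM. All of the high glucose values lay above the low glucose ones, and the libraries at 16.8 mM were the further apart (10.4 ± 1.2 against 6.97 ± 0.28 RPKM, SD, n = 2). This was a log2 fold change of 0.54 (95% interval 0.25 to 0.82, SE 0.12, limma adjusted p = 0.0162), larger in size than that of 84.5% of transcripts. Without the first library at 16.8 mM it was 0.43 with a limma adjusted p of 0.0781. The longer entry of the gene showed the same order, with 4.84 and 5.14 RPKM at 2.8 mM and 8.01 and 6.81 RPKM at 16.8 mM. It overlaps the entry used, so this order is not a separate measurement.

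*Cdkn1b* encodes p27, the Cip/Kip inhibitor that holds quiescent beta cells in G1. The gene lies on the plus strand of chromosome 6 at 134870419 to 134875531. Its values were 11.6 and 11.3 RPKM at 2.8 mM and 9.95 and 8.95 RPKM at 16.8 mM. The groups did not overlap, but the difference did not pass (log2 fold change -0.26, 95% interval -0.54 to 0.01, SE 0.11, limma adjusted p = 0.115). The ratio of *Cdkn1a* to *Cdkn1b* in RPKM as deposited was 0.583 and 0.637 at 2.8 mM and 1.13 and 1.06 at 16.8 mM, so their order reversed between the groups on this scale, with an exact permutation p of 0.333. On the exon scale *Cdkn1a* was the higher in every library, and the sum of the pair was 37.7 and 38.7 at 2.8 mM and 51.9 and 44.7 at 16.8 mM.

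*Cdkn2c* encodes p18, an INK4 inhibitor, and lies on the minus strand of chromosome 4 at 109333481 to 109339794. It held 0.643 and 0.642 RPKM at 2.8 mM and 0.758 and 0.639 RPKM at 16.8 mM, under the minimum for the test. The libraries at 2.8 mM were nearly equal and lay between those at 16.8 mM. In voom the log2 fold change was 0.12 (95% interval -0.25 to 0.49, adjusted p = 0.608), an interval that leaves room for a moderate change in either direction.

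The G cyclins differed from each other. *Ccng1*, on the minus strand of chromosome 11 at 40562054 to 40568813, held 21.2 and 19.6 RPKM at 2.8 mM and 11.4 and 9.89 RPKM at 16.8 mM. The mean at high glucose was 0.521 times that at low glucose, the largest change in the group (10.6 ± 1.1 against 20.4 ± 1.2 RPKM, SD, n = 2). This was a log2 fold change of -0.91 (95% interval -1.21 to -0.61, SE 0.13, limma adjusted p = 0.0028), larger in size than that of 94.8% of transcripts, and it passed in all 16 alternative fits. *Ccng2*, on the plus strand of chromosome 5 at 93696283 to 93705257, held 1.55 and 1.58 RPKM at 2.8 mM and 1.80 and 1.46 RPKM at 16.8 mM. Its low glucose libraries lay between the high glucose ones. Its log2 fold change was 0.04 (95% interval -0.19 to 0.27, limma adjusted p = 0.773).

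Ordered by level on the exon scale, the genes changed places between the groups. At 2.8 mM *Cdk4* stood first with a mean of 61.4 ± 2.4, followed by *Ccnd2* at 54.2 ± 0.65 and *Ccng1* at 39.3 ± 2.3 (SD, n = 2). *Cdkn1a* at 25.4 ± 1.0, *Ccnd1* at 14.8 ± 1.3, *Cdkn1b* at 12.8 ± 0.29 and *Ccnd3* at 11.2 ± 0.35 came next, and *Ccng2*, *Cdkn2c* and *Cdk6* closed the order, *Ccng2* with 4.97 and 5.03 in its libraries and the others with means of 1.64 and 0.350. No neighbours in this order had overlapping libraries. At 16.8 mM *Ccnd2* at 43.2 ± 3.4, *Cdk4* at 39.9 ± 3.5 and *Cdkn1a* at 37.7 ± 4.3 stood together, and *Cdk4* overlapped each of the others, so its place between them is within the spread. *Ccnd1* at 22.7 ± 0.94 now lay just above *Ccng1* at 20.5 ± 2.0, and *Ccnd3* at 14.1 ± 1.3 above *Cdkn1b* at 10.6 ± 0.79. *Ccng2*, *Cdkn2c* and *Cdk6* again came last, at 5.21, 1.79 and 0.411.

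The calls of some of these genes depended on the fit. With the libraries set to a common median, and likewise with quantile normalization, 6 of the 8 passed, namely the 4 above with *Ccnd3* higher and *Cdkn1b* lower, where 47.9% and 47.4% of all transcripts passed. In voom 7 of the 10 passed, with *Ccnd2* lower as well, against 42.5% of 14304 transcripts (13.3% higher and 29.1% lower). The voom log2 fold changes were 0.61 for *Ccnd1*, -0.33 for *Ccnd2*, 0.33 for *Ccnd3*, -0.62 for *Cdk4*, 0.57 for *Cdkn1a*, -0.28 for *Cdkn1b* and -0.94 for *Ccng1*. Without a minimum RPKM, *Ccng1* alone passed among the 10, where 9.13% of 28047 transcripts passed. The fold changes themselves kept their direction in these fits. Without a minimum RPKM they were identical to those reported by construction.

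**Figure D3:**
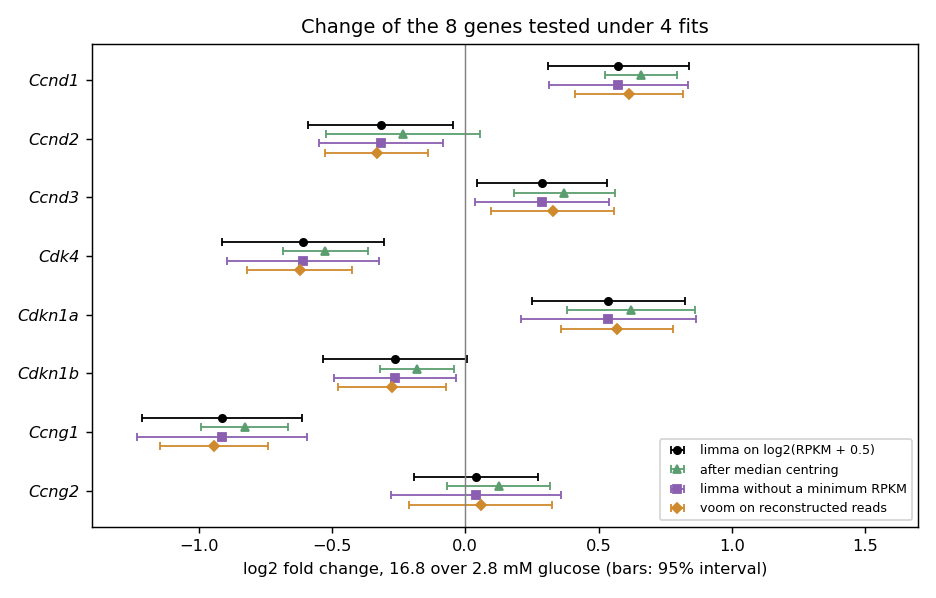
Log2 fold change at 16.8 mM over 2.8 mM glucose (horizontal axis) with its 95% interval for the 8 tested genes under limma as reported (black circles), after median centring (green triangles), without a minimum RPKM (purple squares) and in voom on reconstructed reads (orange diamonds). The 4 estimates of a gene lie close together, and *Ccng1*, *Cdk4*, *Cdkn1a* and *Ccnd1* stay clear of 0 in each.

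Related genes were counted in 7 lists with 117 genes, of which 40 reached the minimum. In limma 5 rose and 15 fell, 12.5% and 37.5% of those tested, where all transcripts gave 10.7% and 22.8%, and their median log2 fold change was -0.27 against -0.11 for all transcripts. Since RPKM is taken here over the gene with its introns, a gene can miss the minimum through a long span as well as a low level, and *Igf1r* missed it with at least 8978 reads at 2.8 mM. Genes below the minimum are described with voom. The minimum is a mean over all libraries, so a gene can reach it through the libraries of a single group.

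Among 16 other genes of G1 control, 3 were tested and 1 fell. This was *Cks1b*, a small subunit of the kinase complex that serves the breakdown of p27, with 3.45 and 3.22 RPKM at 2.8 mM and 1.74 and 1.79 RPKM at 16.8 mM (log2 fold change -0.76, limma adjusted p = 0.0014). The INK4 inhibitors *Cdkn2b* and *Cdkn2d* had log2 fold changes of -0.30 and -0.18 (limma adjusted p = 0.0813 and 0.342). In voom all 16 were tested, and 1 rose and 4 fell, 6.25% and 25.0%, both under the shares of all transcripts of 13.3% and 29.1%. *Ccne2*, an E cyclin that partners Cdk2, rose by 0.49 on the log2 scale (adjusted p = 0.0154), whereas *Ccne1* had -0.44 (adjusted p = 0.129) and *Cdk2* 0.12 (adjusted p = 0.640). The Cip/Kip inhibitor *Cdkn1c* fell by 1.03 on the log2 scale (adjusted p = 0.0279), from 0.334 and 0.220 RPKM to 0.134 and 0.131 RPKM. *Cdkn2a*, the INK4 gene of ageing beta cells, fell by 1.17 on the log2 scale (adjusted p = 0.0072) at a level under 0.07 RPKM in every library.

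Of 13 pocket proteins and E2F genes, 3 were tested and 1 fell, the repressor *E2f6* (log2 fold change -0.36, limma adjusted p = 0.0152, and -0.30 with 0.0673 without the first library at 2.8 mM). The voom fit tested 12 and found 1 higher and 6 lower, 8.33% and 50% beside 13.3% and 29.1% of all transcripts. *Rb1*, the target of the D cyclin kinases, fell by 0.34 on the log2 scale (adjusted p = 0.0097), and its relative *Rbl2* fell by 0.45 (adjusted p = 0.0014), while *Rbl1* had 0.01 (adjusted p = 0.969).

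The p53 list is of interest because *Cdkn1a* and *Ccng1* are both known targets of p53 and moved in opposite directions here. Of its 21 genes 16 were tested, and 2 rose and 8 fell in limma, 12.5% and 50% beside 10.7% and 22.8% of all transcripts, with a median log2 fold change of -0.34. *Trp53* itself was lower, with 2.69 and 2.51 RPKM at 2.8 mM and 1.92 and 1.67 RPKM at 16.8 mM (log2 fold change -0.43, limma adjusted p = 0.0141, and -0.35 with 0.0532 without the second library at 16.8 mM). *Trp53inp1*, a stress protein that acts with p53, went from 5.89 and 5.28 RPKM to 2.80 and 2.37 RPKM (log2 fold change -0.98, limma adjusted p = 0.0014). *Phlda3*, an inhibitor of Akt, fell by 0.65 on the log2 scale (limma adjusted p = 0.0052). In contrast *Btg2*, an antiproliferative gene, rose from 11.2 and 11.0 RPKM to 17.8 and 17.8 RPKM (log2 fold change 0.66, limma adjusted p = 0.0057). *Mdm2*, which marks p53 for breakdown, had a log2 fold change of -0.21 (limma adjusted p = 0.147). In voom 2 of all 21 rose and 13 fell, 9.52% and 61.9%, beside 13.3% and 29.1% of all transcripts. *Ccng1* and *Cdkn1a* were not counted in this list. Among the genes that fell in limma, *Bbc3* and *Zmat3* reached the minimum only through the 2.8 mM libraries. Their means at 16.8 mM were 0.978 and 0.937 RPKM. *Bbc3* did not pass after quantile normalization or median centring. *Plk2*, 1 of the 2 that rose, passed narrowly (limma adjusted p = 0.0484). Without each library in turn, the log2 fold change ranged from -0.51 to -0.22 for *Bbc3* and from -0.51 to -0.33 for *Rrm2b*, which also fell. For *Plk2* it ranged from 0.22 to 0.50.

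FOXO factors and their known targets were 12 genes, of which 4 were tested and 2 rose and 0 fell in limma. This was 50% and 0% beside 10.7% and 22.8% of all transcripts. *Irs2*, an adaptor of the insulin and IGF1 receptors, went from 0.740 and 0.670 RPKM to 2.09 and 1.87 RPKM (log2 fold change 1.04, limma adjusted p = 0.0005). With a mean of 0.705 RPKM at 2.8 mM, *Irs2* reached the minimum only through the 16.8 mM libraries. *Cited2*, a transcriptional cofactor, rose by 0.46 on the log2 scale (limma adjusted p = 0.0251), a call lost in 2 of the 4 fits that leave out a library (adjusted p up to 0.110 without the first library at 16.8 mM, and also lost without the second at 2.8 mM). In voom 2 of the 12 rose and 4 fell, 16.7% and 33.3%, close to the 13.3% and 29.1% of all transcripts. The 4 that fell were *Foxo6*, *Insr*, *Bcl6* and *Fbxo32*, all under the RPKM minimum and so not tested in limma. Their voom log2 fold changes were -0.76, -0.93, -0.64 and -0.98 (adjusted p of 0.0028 or less). In the same fit *Foxo1* and *Foxo3* had log2 fold changes of 0.19 and -0.06 (adjusted p = 0.139 and 0.690).

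Of 15 other cyclins, 6 were tested and *Ccni*, an atypical cyclin of cells that no longer divide, fell (log2 fold change -0.31, limma adjusted p = 0.0436). That call was lost without any one of the 4 libraries, with adjusted p up to 0.209. In voom 0 of 14 rose and 4 fell, 28.6% lower beside 29.1% of all transcripts.

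Genes of S phase and mitosis were nearly all under the minimum. Of 25, 2 were tested in limma, and *Mcm7*, a subunit of the replicative helicase, fell (log2 fold change -0.34, limma adjusted p = 0.0146). In voom 7 of 23 rose and 2 fell, 30.4% and 8.70%, where the background was 13.3% and 29.1%. *Cdk1*, the kinase of mitosis, rose by 1.09 on the log2 scale (adjusted p = 0.0332), but from only 0.0357 and 0.0177 RPKM to 0.0405 and 0.0774 RPKM. *Mki67*, the common marker of cycling cells, had 0.0978 and 0.0731 RPKM at 2.8 mM and 0.132 and 0.0999 RPKM at 16.8 mM (log2 fold change 0.44, adjusted p = 0.118), and *Ccna2* had a log2 fold change of -0.14 (adjusted p = 0.481).

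The last list held 15 factors known to act on D cyclins or on INK4 inhibitors in islets, of which 6 were tested, and 1 rose and 3 fell in limma, 16.7% and 50% beside 10.7% and 22.8% of all transcripts. *Prlr*, the prolactin receptor through which pregnancy raises *Ccnd2* and beta cell division, went from 0.875 and 0.858 RPKM to 3.71 and 4.63 RPKM (log2 fold change 1.77, limma adjusted p = 0.0002). *Myc*, which can induce *Ccnd2* and *Cdk4*, went from 3.51 and 3.24 RPKM to 1.04 and 0.933 RPKM (log2 fold change -1.38, limma adjusted p = 0.0002). *Bmi1*, a Polycomb protein that represses *Cdkn2a*, went from 8.61 and 8.09 RPKM to 4.65 and 4.37 RPKM (log2 fold change -0.82, limma adjusted p = 0.0020). The receptor thus rose while *Myc* fell. *Prlr* reached the minimum only through the libraries at high glucose, as its mean at low glucose was 0.866 RPKM. *Myc* reached it only through the libraries at low glucose, as its mean at high glucose was 0.987 RPKM. In voom 4 of the 15 rose and 6 fell, 26.7% and 40% beside 13.3% and 29.1% of all transcripts.

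**Figure D4:**
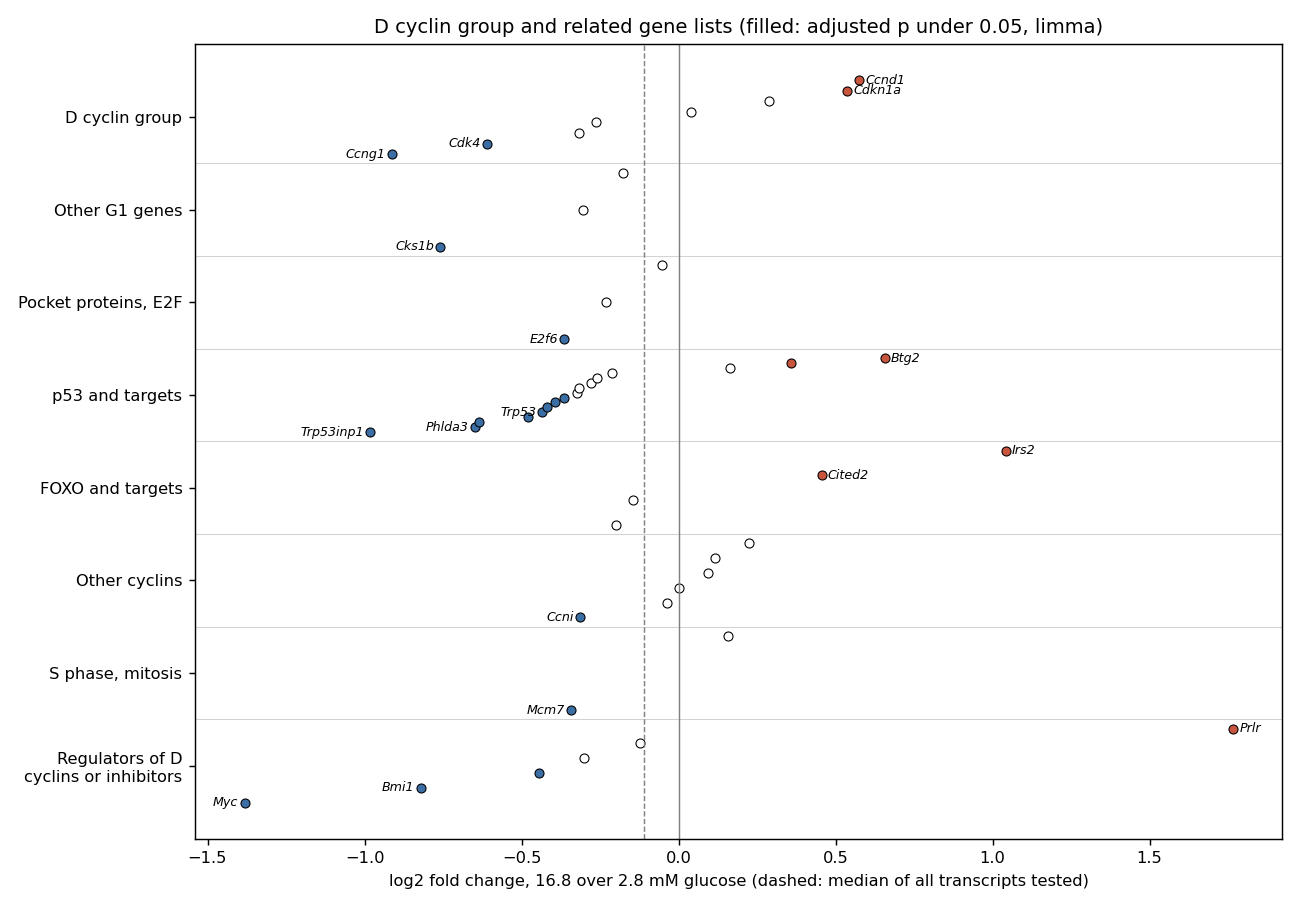
Log2 fold change at 16.8 mM over 2.8 mM glucose (horizontal axis) of the tested genes among the D cyclin group and the 7 related lists (rows, points spread vertically for legibility), filled red or blue where the limma adjusted p was under 0.05 and open otherwise, with the larger calls named. The dashed line is the median of all transcripts tested, -0.11, and most points of the p53 list lie to its left.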

How the data were processed

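The authors deposited RPKM values for RefSeq transcripts of 4 libraries in 1 table. The submitters' processing notes name STAR, bedtools, DESeq and mm9. No counts were used, so log2(RPKM + 0.5) was compared with limma 3.58.1 (R 4.3.3, variance trend, empirical Bayes, Benjamini-Hochberg at 0.05) over 7867 of 28047 distinct entries with a mean of at least 1 RPKM, which understates fold changes of low genes. Library depth was recovered from the steps of microRNA values (90.6% to 93.1% whole within 0.05 reads), and low genes gave whole reads (within 0.1) for 81.6% to 83.4% over the genomic span and 16.5% to 17.1% over exons. Reads reconstructed from RPKM, span and depth were fitted with voom, at a mean of at least 20 reads. Counting errors cover the sampling of reads only, not duplicates. The fit was tested on simulated data. Members, lists and motifs were chosen with earlier results of these data known. All members were named, with fixed relatives and, per list, the 3 called genes with the largest absolute log2 fold change. Further genes were named only to show a limit of a count. Gene positions come from GENCODE for NCBIM37, and promoters from RefSeq. Python 3.11.15, pandas 2.3.3, numpy 2.4.6 and matplotlib 3.10.9 did the rest.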

Additional observations from a re-analysis of the deposited data

How the results depend on the processing

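Of 130 tested alternatives for single genes of the D cyclin group, 110 kept direction and side of the threshold, 13 passed where the reported fit did not, 6 no longer passed and 1 reversed, *Ccng2*, at -0.0741 (limma adjusted p = 0.640) without replicate 1 at 16.8 mM and 0.155 without replicate 2. The cause of these changes was not tested. Alternatives that changed only the transcripts tested, the variance trend or the block left the log2 fold change of a gene identical in limma. Direction could not change in those. The ratio of mean RPKM, which has no test, kept the direction for 8 of 8 genes. Transcripts called numbered 2628 as reported and 6074 in voom, those of the D cyclin group 4 as reported, 7 in voom and 1 without a minimum RPKM, and those of the related lists 20 as reported and 56 in voom. Leaving out 1 library gave 1825 to 2579, 3 to 4 and 16 to 20 calls. Of the calls, 31.9% were higher at 16.8 mM as reported, 42.3% after quantile normalization and 44.1% after median centring.

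Libraries of the 2 groups share replicate numbers, which the labels do not explain, and same-numbered libraries deviated together with r = 0.31 across transcripts. With the replicate block, 4067 of 7867 transcripts, 6 genes of the D cyclin group (*Ccnd2* with adjusted p = 0.0398 and *Cdkn1b* with 0.0382 in addition) and 27 of the related lists passed in limma. In voom with the block, chosen after seeing the data, 8184 of all 14304 transcripts passed. So did 7 of the 10 genes of the D cyclin group and 67 genes of the related lists. With 2 libraries per group, small changes can be missed, and genes under 1 RPKM rest on reconstructed reads alone.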
